A study of Mus musculus with 8 samples.

Results

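The genes of the cytosolic ribosomal proteins were followed in T follicular helper (Tfh) cells of the mouse, which are CD4+ T cells that support B cells within germinal centres. The set held 91 of the 16735 genes present in both deposited count tables: every gene annotated as protein coding whose symbol is Rpl or Rps with a number, Rplp with a number, or Rpsa, with the 9 S6 kinase genes left out. By name 54 belonged to the large subunit and 37 to the small subunit. The symbols do not all name core ribosomal proteins. Rpl22l1, Rpl36al, Rpl39l, Rps27l and Rps27rt are paralogues, Rpl7l1 is a large-subunit assembly factor and Rps19bp1 is a nucleolar protein that binds RPS19, and these 7 were kept apart from the core of 50 large-subunit and 34 small-subunit genes. The symbols of 8 of the 91 mark them as gene copies that the annotation still lists as protein coding (Rpl10-ps3, Rpl36a-ps1, Rpl9-ps6, Rplp2-ps1, Rps18-ps5, Rps18-ps6, Rps23rg1 and Rps27rt).

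The cells formed 4 groups of 2 libraries: Peyer's patch ZsGreen+, Peyer's patch ZsGreen-, spleen ZsGreen+ and spleen ZsGreen- cells, where Peyer's patches are lymphoid follicles in the wall of the small intestine. All came from K/BxN mice, which develop arthritis spontaneously, with a Th17 fate-mapping reporter that leaves ZsGreen in cells of Th17 descent. Enriched CD4+ T cells were sorted as TCRβ+ cells that carried CXCR5 and PD-1 and lacked CD25. The sources used here do not give the age, sex and number of the animals, any pooling, or the promoter behind the reporter. Replicate 1 of each group came from experiment 1 and replicate 2 from experiment 2, whose tables were deposited separately. Nothing states that replicates came from separate animals, so p-values measure only the spread between these libraries, which may be technical. For library preparation the labels name poly A selection and an ultra-low-input kit that keeps no strand, without assigning libraries to either. In any library made with that kit, a gene's reads cannot be told apart from those of an overlapping antisense gene.

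A cytosolic ribosome joins a large subunit, which forms the peptide bond, to a small subunit, which reads the messenger RNA. Each subunit takes up one copy of nearly every one of its proteins, and the mRNAs of these proteins are among the most abundant in dividing cells. Most of them begin with a C followed by a run of pyrimidines, the terminal oligopyrimidine (TOP) tract, through which mTORC1 and LARP1 control their translation. Activated T cells depend on this control as they enlarge and divide. Mammalian genomes also hold many processed pseudogenes of these genes, often nearly identical to the parent mRNA, so that short reads can be assigned to several rows of a count table.

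The annotated start sites of a few members show the tract and its absence. Shown are the 10 bases before and 20 bases from the annotated start on, on the gene's strand, from RefSeq on GRCm38.p6, with capitals for the longest run that has a C followed by at least 4 pyrimidines and begins within 10 bases of the start. Shorter runs of that kind stay in lower case. Rps27 and its retrogene Rps27rt, the copy with most of the counts, and Rps6, the substrate of the S6 kinases, carry one, as does Rps21, which had the lowest fitted value in both sort comparisons. Rps21 has 2 annotated entries, and an entry with a tract is shown. Rps19bp1, the one member that was higher in ZsGreen+ cells past the threshold, carries none in this window. Rpl13, which was lower past the threshold in spleen, carries none either. Rps27l, among the highest values in spleen, carries a tract, as does Rpl22l1, whose spleen value was negative. The windows of Rpl13, Rps27l and Rpl22l1 are not printed. A link between the tract and the change was not tested.
Rps27 (chr3:90213629-90213658, minus strand): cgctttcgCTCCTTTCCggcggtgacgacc
Rps27rt (chr9:114982720-114982749, minus strand): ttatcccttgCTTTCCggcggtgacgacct
Rps6 (chr4:86857348-86857377, minus strand): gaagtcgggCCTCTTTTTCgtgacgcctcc
Rps21 (chr2:180257369-180257398, plus strand): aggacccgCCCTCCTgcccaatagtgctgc
Rps19bp1 (chr15:80264287-80264316, minus strand): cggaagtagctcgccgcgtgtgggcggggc

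Such a tract, searched on the gene's strand in this window only, was present in 39 of the 65 members with an entry in the RefSeq table (60%), against 34.4% of the 27025 genes with an entry. The shares were 20 of 34 core large-subunit genes (58.8%), 15 of 24 core small-subunit genes (62.5%) and 4 of the 7 paralogues and look-alikes. Of 69 mitochondrial ribosomal protein genes, 31 (44.9%) had one. A gene with several entries was counted if any of them had a tract. A match describes these letters and annotated starts and not the start used in these cells. Members without an entry include Rpl10-ps3, Rpl17, Rpl21, Rpl23a, Rpl29, Rpl3, Rpl30, Rpl32, Rpl36, Rpl36a-ps1, Rpl7, Rpl8, Rpl9-ps6, Rplp1, Rplp2-ps1, Rps14, Rps18-ps5, Rps18-ps6, Rps20, Rps27a and Rps29.

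The libraries held 10009800 to 15323700 estimated counts. The 9 Tfh markers checked (among them Cd4, Cxcr5, Pdcd1 and Bcl6) were detected in every group, with a summed level of 2919 to 7247 CPM (read counts relative to library size, scaled by TMM, edgeR's correction for library composition). TMM factors were 1.23 to 1.24 in experiment 1 and ranged in experiment 2 from 0.971 in Peyer's patch ZsGreen+ cells to 0.656 in spleen ZsGreen- cells, the library farthest from the others. Of the 91 members, 90 were among the 14418 genes that passed the filter on low counts, and Rps23rg1, at 0.12 CPM on average, did not. Members were read with many fractional counts: per library, 83.5% to 92.3% of their values were farther than 0.01 from an integer, against 20.8% to 31.2% over all genes. In bulk RNA, fewer cells of a type and less RNA per cell cannot be told apart.

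Ribosomal protein transcripts made up a small and uneven share of these libraries, and that share depended first on the experiment. Members took 2.66% and 1.36% of the counts in Peyer's patch ZsGreen+ cells (experiments 1 and 2), against 3.51% and 1.21% in Peyer's patch ZsGreen- cells. In spleen they took 2.79% and 1.17% in ZsGreen+ cells, against 3.08% and 1.13% in ZsGreen- cells. Every library of experiment 1 lay above every library of experiment 2. ZsGreen+ cells had the lower share in experiment 1 and the higher share in experiment 2 in both tissues. After TMM scaling the order in experiment 2 turned round. The summed level of the members was then 21525 and 14090 CPM in Peyer's patch ZsGreen+ cells, against 28575 and 14503 CPM in ZsGreen- cells, and 22740 and 14359 CPM in spleen ZsGreen+ cells, against 25129 and 17298 CPM in ZsGreen- cells. On that scale ZsGreen+ cells were lower in all 4 pairs, by little in the Peyer's patch pair of experiment 2.

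**Figure D1:**
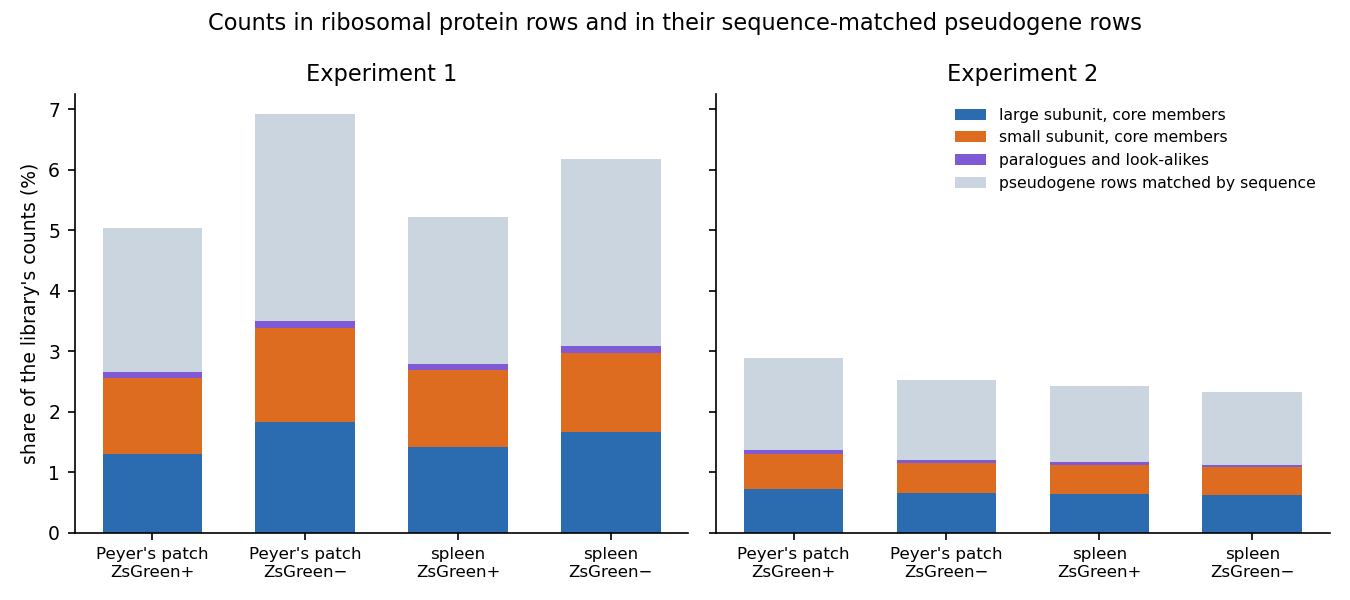
Share of each library's estimated counts (percent, vertical axis) in the core large-subunit genes, the core small-subunit genes, the 7 paralogues and look-alikes, and the processed pseudogene rows matched to a member by sequence, per library and experiment. All 4 libraries of experiment 1 hold a larger share than those of experiment 2, and the pseudogene rows hold nearly as much as, or more than, the member rows (46.7% to 52.8% of both together).

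Close to the same number of counts lay on pseudogenes as on the genes themselves. A search by sequence (at least 80% identity over at least 50% of the coding sequence) tied 516 of the 2260 processed pseudogene rows to 77 members, and 361 of those rows bear no ribosomal protein name. Rps2, a protein at the mRNA entry of the small subunit, had the most with 35 rows, followed by Rpl7a with 30 and Rpl21 with 29. Among the 83 members that are no copies, the gene's own row held under 10% of the counts of its family (itself plus its copies) in 17 and over 90% in 19. Rps19bp1, which was left out of the search, is among the 19. Rpl4 (93.1%), Rps3 (97.7%) and Rpl41 (100%) were read almost wholly on their own rows. Rpl5 (1.2%), Rpl23a (0.784%), Rpl10 (2.18%), Rps27 (1.33%), Rpl13 (4.61%) and Rps6 (7.70%) were read mostly on copies. These shares pool the libraries of both experiments.

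Core proteins of one ribosome are needed in equal numbers, but their rows were far from equal. By CPM the most abundant were Rplp0 of the stalk that recruits translation factors (mean 1451 CPM over the 8 libraries), Rpl4 (1281), Rpsa, the laminin receptor precursor of the small subunit (1206), Rpl13a (1068) and Rps3 (863). The least abundant were Rps23rg1 (0.12), Rpl39l (0.889), Rpl23a (3.97), Rps27 (5.83) and Rpl38 (6.46). The values per kilobase that follow are divided by the coding length alone, without the untranslated bases of the mRNA. A very short coding sequence, such as the 75 bases of Rpl41, therefore inflates the value and the top of the range. Per kilobase of coding sequence, the 77 core genes that are no copies ran from 8.49 CPM for Rpl23a to 4027 CPM for Rpl41, the shortest, a 474-fold range with a standard deviation of 1.92 on the log2 scale. Summed with their copies the same 77 genes ran from 51.6 CPM per kilobase for Rpl38 to 4038 for Rpl41, a 78.3-fold range with a standard deviation of 1.0, and their median was 808, against 220 for the rows alone.

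Rps13, a small-subunit protein, shows how little separates a gene from its copies. Its coding sequence of 453 bases has 2 differences from the pseudogene Rps13-ps1 on chromosome 8 and 0 from Rps13-ps2 on chromosome 7. The stretch with both differences, coding bases 381 to 440 in GENCODE M21 (GRCm38), is printed with capitals at the bases where Rps13 and Rps13-ps1 differ. These are T411C and A429G, with Rps13's base first and positions counted from 1 at the first coding base.
Rps13: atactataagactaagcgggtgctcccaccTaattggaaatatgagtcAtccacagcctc
Rps13-ps1: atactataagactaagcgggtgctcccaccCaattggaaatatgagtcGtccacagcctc
Rps13-ps2: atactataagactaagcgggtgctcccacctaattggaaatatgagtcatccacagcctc

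In experiment 1 the row that took the counts differed between the sorts. Rps13-ps1 held 65.1% of the family's counts in Peyer's patch ZsGreen+ cells, against 11.3% in ZsGreen- cells, and 63.9% in spleen ZsGreen+ cells, against 11.5% in ZsGreen- cells. Rps13-ps2 held 26.4% and 28.2% in ZsGreen+ cells of Peyer's patch and spleen, against 81.9% and 81.8% in ZsGreen- cells. In experiment 2 Rps13-ps1 held 8.53% to 14.8% and Rps13-ps2 71.5% to 78.7%, with no such split between the sorts. Rps13's own row had 5.77% to 14.3% in every library. The whole family gave log2 fold changes (ZsGreen+ over ZsGreen-) of -0.22 in Peyer's patch (adjusted p = 0.806, edgeR) and -0.11 in spleen (adjusted p = 0.768), so the exchange between rows left no change past the threshold in the sum.

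Other families divided their counts by experiment. Rpl13 shared its counts with Gm12918, a pseudogene on chromosome 4, and its own row held 7.61% to 8.40% in experiment 1 and 1.50% to 1.80% in experiment 2. In the family of Rpl10, a protein that joins late in the assembly of the large subunit, the copy Rpl10-ps3 held 92.4% to 97.6% in experiment 1 and 34.1% to 38.1% in experiment 2. There Rpl10-ps1 held 55.8% to 60.5% in experiment 2 and at most 3.81% in experiment 1. Rps27rt held 94.3% to 99.1% of the Rps27 family in every library. Fitted sort and tissue differences of a row in these families were therefore taken within an experiment. Means over all libraries, and family shares pooled over them, mix the experiments.

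**Figure D2:**
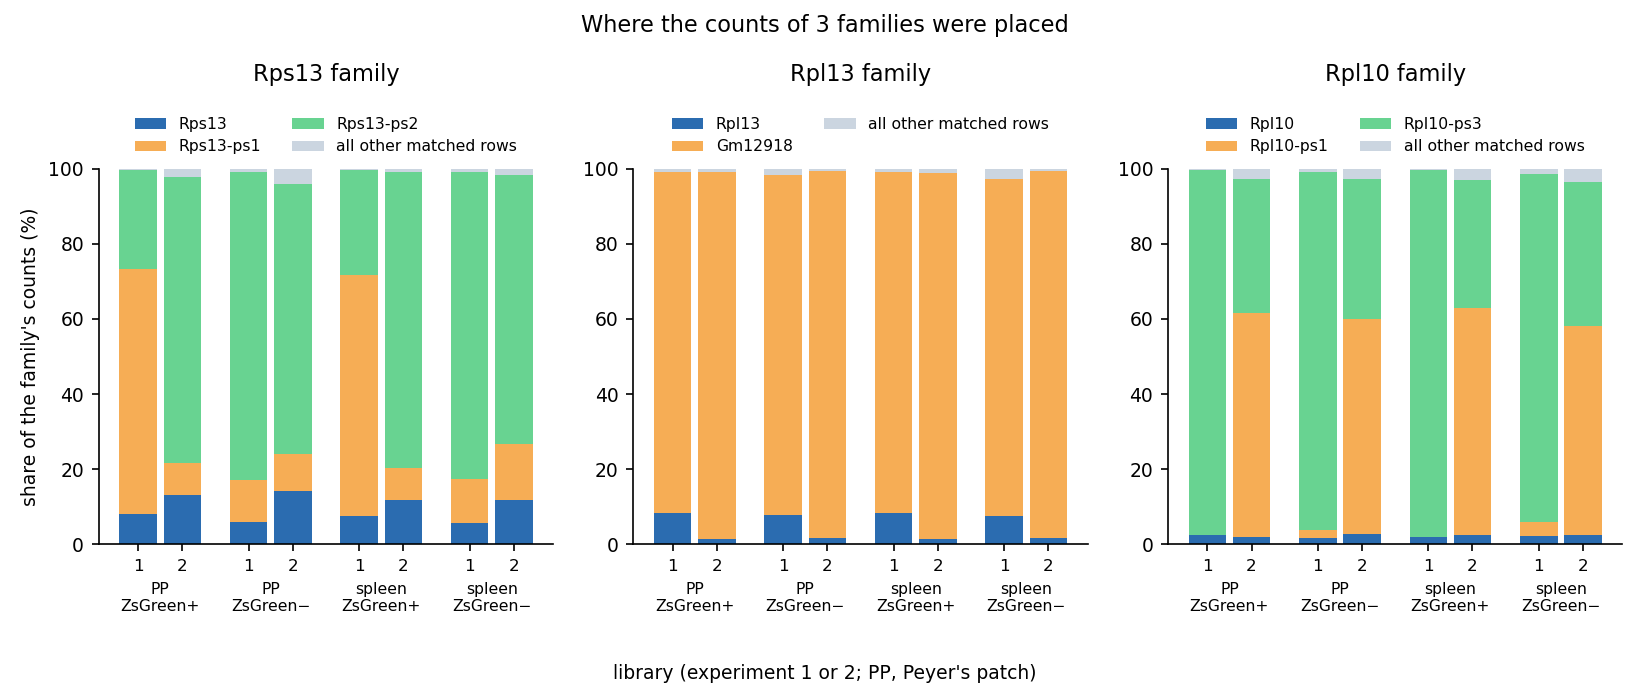
Share of the family's counts (percent, vertical axis) held by each row of the Rps13, Rpl13 and Rpl10 families in the 8 libraries, with the gene's own row and its copies in separate colours. Rps13-ps1 holds 65.1% and 63.9% in the ZsGreen+ libraries of experiment 1 and at most 14.8% in the other 6, while the Rpl10 copies exchange places between the experiments.

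In the genes' own rows the experiments differed far more than the sorts did. The member rows were a median 1.08 log2 units higher in experiment 1 than in experiment 2, and 76 of 89 with a coding length were higher in experiment 1. Over the 11715 other genes the median was 0.06. Among short genes the contrast was sharper: for coding lengths up to 900 bases the 86 members had a median of 1.09, and 3373 other genes had -0.90. Rps16 (4.49), Rpl28 (3.71), Rps21 (3.58) and Rps7 (3.25) were the most raised in experiment 1, and Rpl7l1 (-1.70), Rps27l (-1.08) and Rpl36al (-0.78) were among the lowest. The other paralogues lay on the side of most core genes, with 2.02 for Rps27rt, 1.08 for Rpl39l and 0.35 for Rpl22l1. The median over members was 0.85, 1.33, 0.94 and 0.93 in the Peyer's patch ZsGreen+, Peyer's patch ZsGreen-, spleen ZsGreen+ and spleen ZsGreen- libraries. Library preparation and experiment cannot be told apart here.

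**Figure D3:**
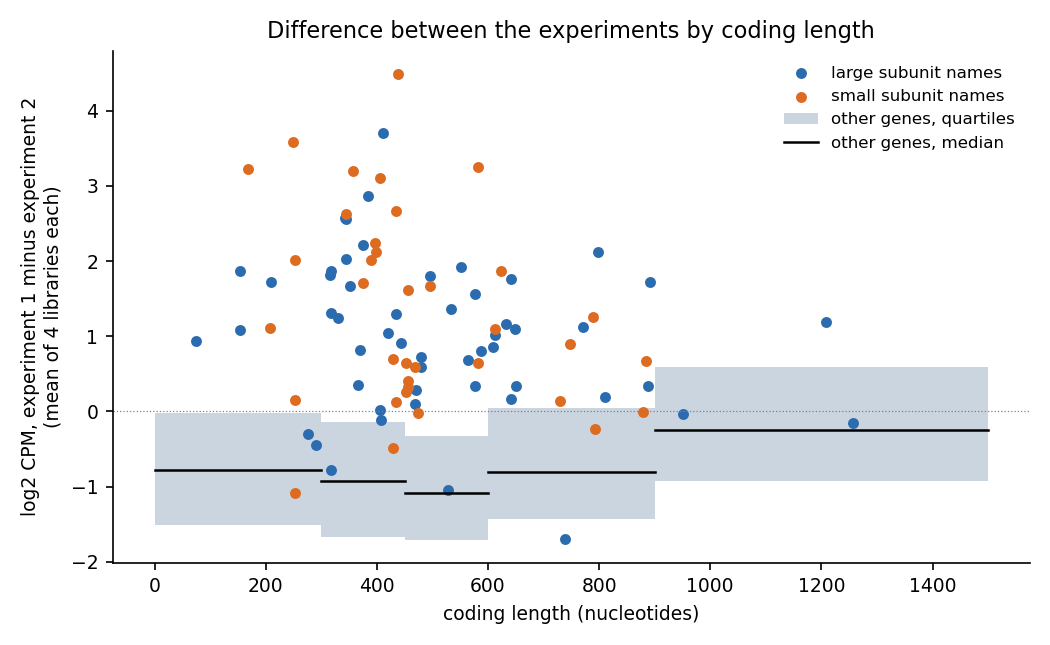
Difference in log2 CPM between experiment 1 and experiment 2 (mean over the 4 groups, vertical axis) against coding length in bases (horizontal axis), for each member and for the quartiles of the other genes in bins of length. Member rows up to 900 bases, without their copies, lie mostly above 0 (median 1.09), other genes of that length below it (median -0.90).

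The first comparison asked which genes mark Tfh cells of Th17 descent in Peyer's patch. None of the 90 members tested passed an adjusted p of 0.05 in edgeR's quasi-likelihood test in ZsGreen+ over ZsGreen- cells, where 0.437% of all genes did (0.284% higher and 0.153% lower). At an unadjusted p under 0.05, 12 members were lower and 0 higher, against 3.82% and 4.31% of all genes. DESeq2 called 1 member, Rpl37a, lower. The values leaned to the low side without passing: 79 of 90 fitted log2 fold changes were negative, and the median was -0.23 over members and 0.00 over all genes tested. It was -0.28 for the 50 core large-subunit genes and -0.18 for the 33 core small-subunit genes tested. The lean came mostly from experiment 1, where the median difference was -0.40, against -0.07 in experiment 2. Members lower in both experiments numbered 46 of 90 (51.1%), against 26.2% of all genes, and 2 were higher in both (27.4% of all genes).

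Rpl37a, a zinc-binding protein of the large subunit, had 33.3 and 48.2 CPM in Peyer's patch ZsGreen+ cells (experiments 1 and 2), against 83.7 and 65.03 CPM in ZsGreen- cells. Both ZsGreen+ values lay below both ZsGreen- values. The log2 fold change was -0.92 ± 0.22 (SE), with adjusted p = 0.202 in edgeR and 0.0473 in DESeq2. Rpl36a-ps1 had 13.6 and 6.44 CPM, against 30.9 and 9.59 CPM, and a log2 fold change of -0.92 ± 0.24 (adjusted p = 0.191). Both experiment 1 values lay above both experiment 2 values, and within each experiment the ZsGreen+ value was the lower. Rps21 had the lowest fitted value, -1.53 ± 0.85 (adjusted p = 0.774), from 20.6 and 3.75 CPM in ZsGreen+ cells, against 101 and 3.21 CPM in ZsGreen- cells. Only experiment 1 was low. Rpl39l followed at -0.86 (adjusted p = 0.835). At the other end stood Rps19bp1 (0.43, adjusted p = 0.662), Rpl15 (0.35, adjusted p = 0.872), Rpl24 (0.31, adjusted p = 0.894) and Rps7 (0.28, adjusted p = 0.908). Summed with their copies 3 of these turned negative, with -0.093 for Rpl15, -0.29 for Rpl24 and -0.091 for Rps7. Rps19bp1, whose copies were not searched for, had 0.42 in that fit. The Rpl37a sum had -1.23 (adjusted p = 0.605).

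Spleen gave the same question more calls. ZsGreen+ over ZsGreen- cells had 1 member higher and 3 lower of 90, where 4.53% of all genes were higher and 4.09% lower (8.62% together), so the members' share of 4 of 90 was no larger than the background. At an unadjusted p under 0.05, 3 members were higher and 12 lower, against 10.6% and 11.3% of all genes. The median log2 fold change was -0.26 over members and -0.03 over all genes, with -0.29 for core large-subunit and -0.20 for core small-subunit genes, and 69 of 90 values were negative. Medians were -0.12 in experiment 1 and -0.26 in experiment 2. Members lower in both experiments numbered 48 (53.3%), against 34.9% of all genes, and 9 were higher in both (31.7% of all genes).

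**Figure D4:**
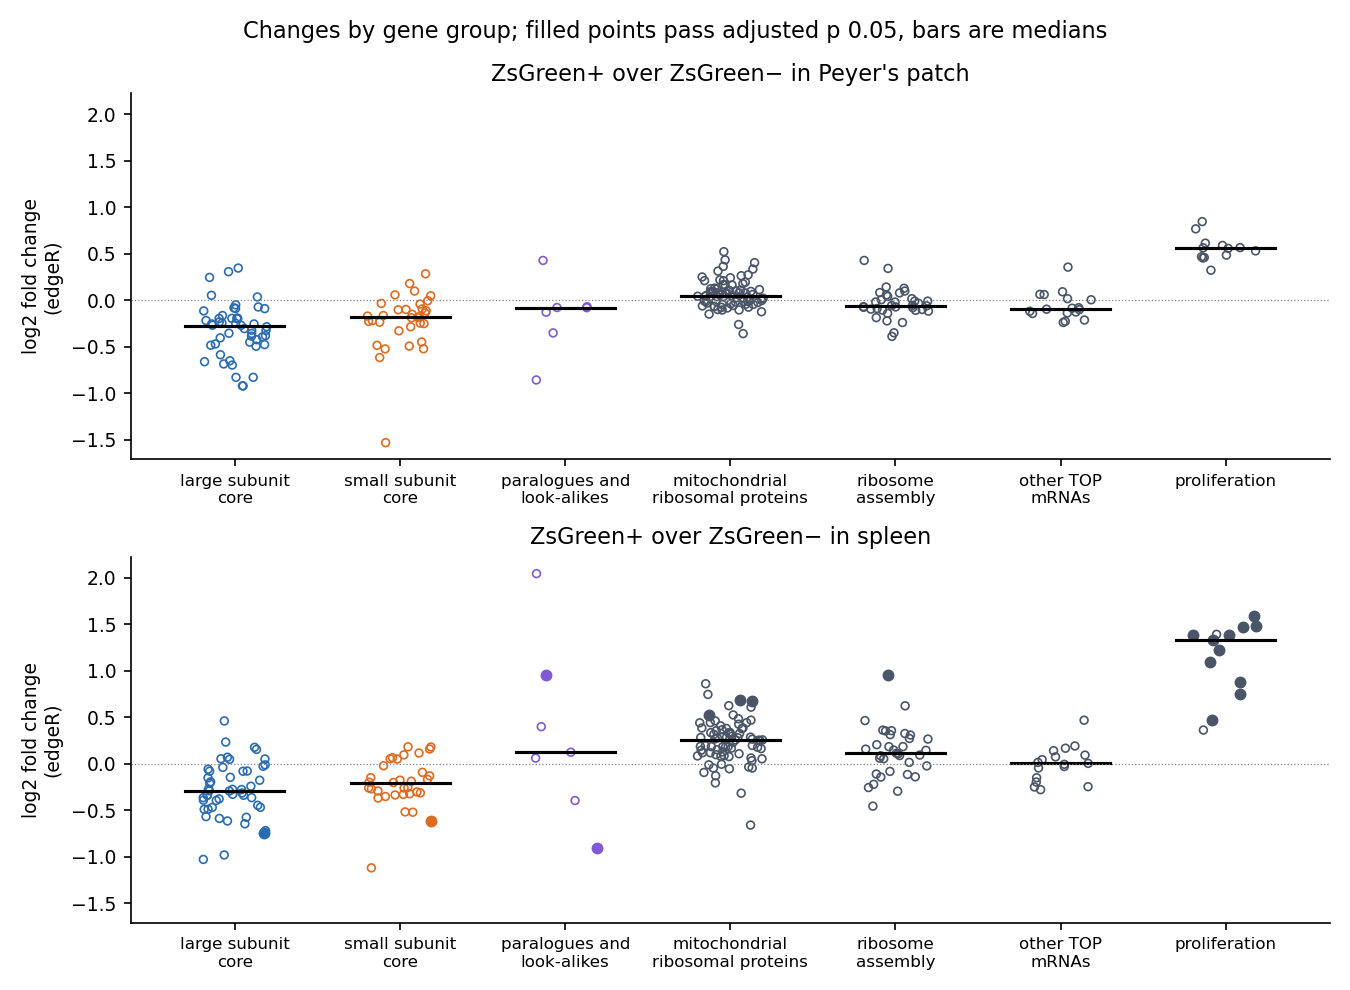
Fitted log2 fold change of ZsGreen+ over ZsGreen- cells (vertical axis) in Peyer's patch and in spleen for the core large-subunit genes, the core small-subunit genes, the paralogues and look-alikes, and further ribosome-related lists, one point a gene, with filled points for adjusted p under 0.05 and a bar at each median. The core medians lie at -0.28 and -0.18 in Peyer's patch and at -0.29 and -0.20 in spleen, and the mitochondrial ribosomal proteins lie at 0.05 and 0.26.

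The member that rose is no ribosomal protein. Rps19bp1 (ENSMUSG00000051518, chr15:80144816-80148517 on mm39, minus strand) had 19.9 and 25.3 CPM in spleen ZsGreen+ cells, against 10 and 13.3 CPM in ZsGreen- cells. Both ZsGreen+ libraries lay above both ZsGreen- libraries. The log2 fold change was 0.95 ± 0.22 (adjusted p = 0.0188), with differences of 0.98 and 0.92 in the experiments. Rps19bp1 was left out of the search for pseudogene rows, so whether it has copies was not examined.

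Of the members that fell, Rps27rt (ENSMUSG00000050621, chr9:114811434-114811808 on mm39, minus strand) had 462 and 108 CPM in spleen ZsGreen+ cells, against 700 and 243 CPM in ZsGreen- cells. Values of the experiments lay far apart, and within each the ZsGreen+ library was lower, by -0.60 and -1.17 on the log2 scale. The fitted log2 fold change was -0.90 ± 0.19 (adjusted p = 0.0128). The retrogene differs so little from Rps27, a zinc-finger protein of the small subunit, that their reads are uncertain. Their sum with the other copy had 467 and 114 CPM in ZsGreen+ cells, against 716 and 249 CPM in ZsGreen- cells, and a log2 fold change of -0.89 (adjusted p = 0.0115).

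Rpl13 (ENSMUSG00000000740, chr8:123829089-123831984 on mm39, plus strand), a large-subunit protein, had 58.2 and 24.0 CPM in spleen ZsGreen+ cells, against 83.0 and 48.2 CPM in ZsGreen- cells. The groups overlapped across experiments, and within each experiment the ZsGreen+ library was lower. Its log2 fold change was -0.75 ± 0.17 (adjusted p = 0.0204), and that of the whole family, in which its row holds few counts, was -0.71 (adjusted p = 0.0765). Rps18-ps5 (ENSMUSG00000113061, chr13:28441511-28442118 on mm39, plus strand), a copy of a small-subunit gene, had 105 and 83.1 CPM in ZsGreen+ cells, against 169 and 122 CPM in ZsGreen- cells. Both ZsGreen+ values lay below both ZsGreen- values, and the log2 fold change was -0.62 ± 0.14 (adjusted p = 0.0185). The sum of the Rps18 family had -0.38 and did not pass (adjusted p = 0.192). DESeq2 called Rps19bp1, Rps27rt, Rpl13 and Rps18-ps5, and also Rpl36 (-0.99, adjusted p = 0.0213).

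Calls for these members rested on few libraries. Leaving out the experiment 1 or the experiment 2 library of spleen ZsGreen+ cells, or the experiment 2 library of spleen ZsGreen- cells, left 0 members past the threshold, and leaving out either library of Peyer's patch ZsGreen- cells left 8. Without the experiment 2 library of spleen ZsGreen- cells, which has the lowest TMM factor, the median over members was -0.13. With library totals in place of TMM the median of all genes moved to 0.11 in both sort comparisons, and the members' median in spleen was -0.11, which is -0.22 relative to all genes.

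Extremes that did not pass in spleen were Rps21 (-1.12, adjusted p = 0.550), Rpl36 (-1.03, adjusted p = 0.174) and Rpl39 (-0.98, adjusted p = 0.448) at the low end. Rpl39l (2.04, adjusted p = 0.167), Rpl5 (0.46, adjusted p = 0.437) and Rps27l (0.40, adjusted p = 0.205) stood at the high end beside Rps19bp1. Rpl36 had 85.6 and 30.3 CPM in ZsGreen+ cells, against 199.5 and 53.5 CPM in ZsGreen- cells. Rpl39l, a paralogue known from testis, had 31 and 11 counts in ZsGreen+ libraries, against 9 and 1 in ZsGreen- libraries, so its fold change rests on few reads.

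Summing each gene with its copies changed which members passed. In spleen, of 84 such sums, Rps19bp1, to which no row was added, remained higher and 4 were lower. The lower ones were Rps27 (-0.89, adjusted p = 0.0115), Rpl36 (-0.73, adjusted p = 0.0294), Rpl36a (-0.60, adjusted p = 0.0353) and Rps23 (-0.70, adjusted p = 0.0374). These 5 of 84 were no larger a share than the 8.62% of all genes in the main fit. The sums were fitted apart, and the share over all rows of that fit is not given here. The Rps23 family had 324 and 272 CPM in spleen ZsGreen+ cells, against 604 and 387 CPM in ZsGreen- cells. Its ZsGreen+ values lay below both ZsGreen- values. Its own row alone, with 62.5 and 26.1 CPM, against 53.3 and 52.9 CPM, had shown a log2 fold change of -0.37 (adjusted p = 0.542). In Peyer's patch 0 sums passed, with 8 lower and 0 higher at an unadjusted p under 0.05. In the main fit 3.82% and 4.31% of all genes were so. The median over sums was -0.23 in Peyer's patch, with 81 of 84 negative, and -0.26 in spleen, with 73 negative.

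By role, the 3 stalk proteins had negative values in both tissues, none past the threshold. Rplp0 had 1194 and 1267 CPM in Peyer's patch ZsGreen+ cells, against 1544 and 1376 CPM in ZsGreen- cells, and 1380 and 1420 CPM in spleen ZsGreen+ cells, against 1619 and 1807 CPM in ZsGreen- cells. In both tissues the ZsGreen+ libraries lay below the ZsGreen- libraries. Its log2 fold changes were -0.25 in Peyer's patch (adjusted p = 0.819) and -0.29 in spleen (adjusted p = 0.447). Rplp1 (Peyer's patch, then spleen) had -0.36 and -0.33, and Rplp2 had -0.25 and -0.15. Rpl5 and Rpl11, which enter the large subunit together with 5S rRNA and bind MDM2 when free, had row values of opposite sign in spleen that their family sums did not share. Their log2 fold changes in Peyer's patch were -0.48 for Rpl11 (adjusted p = 0.439) and -0.22 for Rpl5 (adjusted p = 0.915). In spleen Rpl11 had 38.7 and 17.9 CPM in ZsGreen+ cells, against 62.4 and 24.5 CPM in ZsGreen- cells, for a log2 fold change of -0.57 (adjusted p = 0.0628), while Rpl5, read at 1.2% of its family, had 0.46. Summed with their copies, spleen gave -0.11 for Rpl11 (adjusted p = 0.760) and -0.038 for Rpl5 (adjusted p = 0.932), and Peyer's patch gave -0.18 and -0.087.

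For the other large-subunit proteins chosen by role, values are log2 fold changes in Peyer's patch and then spleen, none past the threshold. Rpl3, near the peptidyl transferase centre, had -0.28 and -0.36, and Rpl13a had -0.42 and -0.39. Rpl10 had -0.05 and -0.01, and Rpl10a had 0.05 and 0.18. With their copies Rpl10 had -0.077 and 0.085, and Rpl10a had -0.12 and -0.033, so signs turned for Rpl10a in both tissues and for Rpl10 in spleen. Rpl38, which in mouse embryos is needed for the translation of certain Hox mRNAs, had -0.39 and -0.36 at a low level, and -0.69 and -0.86 with its copies. The short protein Rpl39 had -0.66 and -0.98, and Rpl41, the shortest, had -0.70 and -0.61. Rpl41 had 252 and 178 CPM in Peyer's patch ZsGreen+ cells, against 588 and 194 CPM in ZsGreen- cells. It had 290 and 178 CPM in spleen ZsGreen+ cells, against 486 and 250 CPM in ZsGreen- cells, so that in both tissues the gap was wider in experiment 1.

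Among small-subunit proteins, Rps6 had 81.2 and 41.0 CPM in Peyer's patch ZsGreen+ cells, against 114 and 54.1 CPM in ZsGreen- cells. It had 87.6 and 46.7 CPM in spleen ZsGreen+ cells, against 95.3 and 61.8 CPM in ZsGreen- cells. The ZsGreen+ library was the lower in each of the 4 pairs, and the log2 fold changes were -0.45 (adjusted p = 0.353) and -0.26 (adjusted p = 0.316). Rpsa (Peyer's patch, then spleen) had -0.19 and -0.13, Rps2 0.10 and 0.05, Rps4x -0.19 and -0.15, Rps27 -0.48 and -0.18, and Rps25 -0.25 and -0.33. Rps27a, made as a fusion with ubiquitin, had -0.33 and -0.34. None of these rows passed. With its copies Rps2 turned to -0.035 and -0.060, and Rps27, whose sum passed in spleen, had -0.36 and -0.89.

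Paralogues held different shares of their pairs in the experiments. Rpl22l1 made up 24.9% and 52.8% of its sum with Rpl22, a protein needed in mouse for the development of αβ T cells, in Peyer's patch ZsGreen+ cells, against 18.5% and 59.4% in ZsGreen- cells, and 20.3% and 60.04% in spleen ZsGreen+ cells, against 18.8% and 66.4% in ZsGreen- cells. The ZsGreen+ share was higher in experiment 1 and lower in experiment 2. Rps27l, which p53 induces, was set against the rows of Rps27 and Rps27rt. It made up 3.34% and 29.5% of that sum in Peyer's patch ZsGreen+ cells, against 3.13% and 23.9% in ZsGreen- cells. In spleen it made up 5.16% and 31.7% in ZsGreen+ cells, against 2.88% and 12.8% in ZsGreen- cells. Rpl36al was set against the rows of Rpl36a and Rpl36a-ps1. It took 76.2% and 93.3% of that sum in Peyer's patch ZsGreen+ cells, against 68.7% and 92.1% in ZsGreen- cells. In spleen it took 79.6% and 95.6% in ZsGreen+ cells, against 74.1% and 93.8% in ZsGreen- cells. For both Rps27l and Rpl36al the ZsGreen+ share was the higher one in all 4 pairs. The shares use member rows only, without the matched pseudogene rows, and are given without a test. The log2 fold changes in Peyer's patch and then spleen were -0.25 and -0.27 for Rpl22, -0.13 and -0.40 for Rpl22l1, -0.08 and 0.40 for Rps27l and -0.07 and 0.12 for Rpl36al, none past the threshold.

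The balance between the subunits was read from the counts of the core large-subunit genes over those of the core small-subunit genes within a library, a ratio that scaling does not touch. Its log2 value was 0.05 and 0.34 in Peyer's patch ZsGreen+ cells (experiments 1 and 2), against 0.22 and 0.40 in ZsGreen- cells, and 0.13 and 0.42 in spleen ZsGreen+ cells, against 0.35 and 0.48 in ZsGreen- cells. Group means were 0.19 ± 0.21, 0.31 ± 0.13, 0.28 ± 0.20 and 0.42 ± 0.09 (SD, n = 2 each) for Peyer's patch ZsGreen+, Peyer's patch ZsGreen-, spleen ZsGreen+ and spleen ZsGreen- cells, so across experiments the groups overlapped. Within each experiment the ratio was lower in ZsGreen+ than in ZsGreen- cells in both tissues, by -0.17 and -0.06 in Peyer's patch and by -0.22 and -0.07 in spleen. It was also lower in Peyer's patch than in spleen, by -0.09 and -0.08 in ZsGreen+ cells and by -0.13 and -0.08 in ZsGreen- cells. The tissue comparisons and the sort comparisons share libraries. The ratio was not tested.

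The sequence-matched pseudogene rows and protein-coding copies were then added to both subunits. This brought Rps27rt, kept apart from the core above, into the small subunit with Rps27. The part of Rps27rt in the change was not tested. The ratio kept these signs and shrank in most, to -0.09 and -0.04 in Peyer's patch and -0.10 and -0.04 in spleen for ZsGreen+ against ZsGreen- cells. Peyer's patch against spleen then gave -0.08 and -0.06 in ZsGreen+ cells and -0.09 and -0.06 in ZsGreen- cells. With only the pseudogene rows named after a member added, the sort differences were -0.11 and -0.031 in Peyer's patch and -0.13 and 0.0033 in spleen, where the sign of experiment 2 turned and the mean was -0.061, against -0.14 from the member rows alone. Weighting every gene equally gave another picture. The difference of mean log2 CPM between the subunits was lower in ZsGreen+ cells in experiment 1 (-0.21 in Peyer's patch and -0.24 in spleen) and higher in experiment 2 (0.05 and 0.11). Without the 5 most abundant genes of each subunit (Rplp0, Rpl4, Rpl13a, Rpl10-ps3 and Rpl8, and Rpsa, Rps3, Rps9, Rps2 and Rps3a1) the sort differences were -0.18 and -0.03 in Peyer's patch and -0.23 and -0.03 in spleen. The tissue differences were then 0.02 and -0.00 in ZsGreen+ cells and -0.03 and 0.00 in ZsGreen- cells, close to 0 in all 4 pairs. Rpsa alone had 1477 and 1045 CPM in Peyer's patch ZsGreen+ cells, against 1168 and 806 CPM in spleen ZsGreen+ cells.

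**Figure D5:**
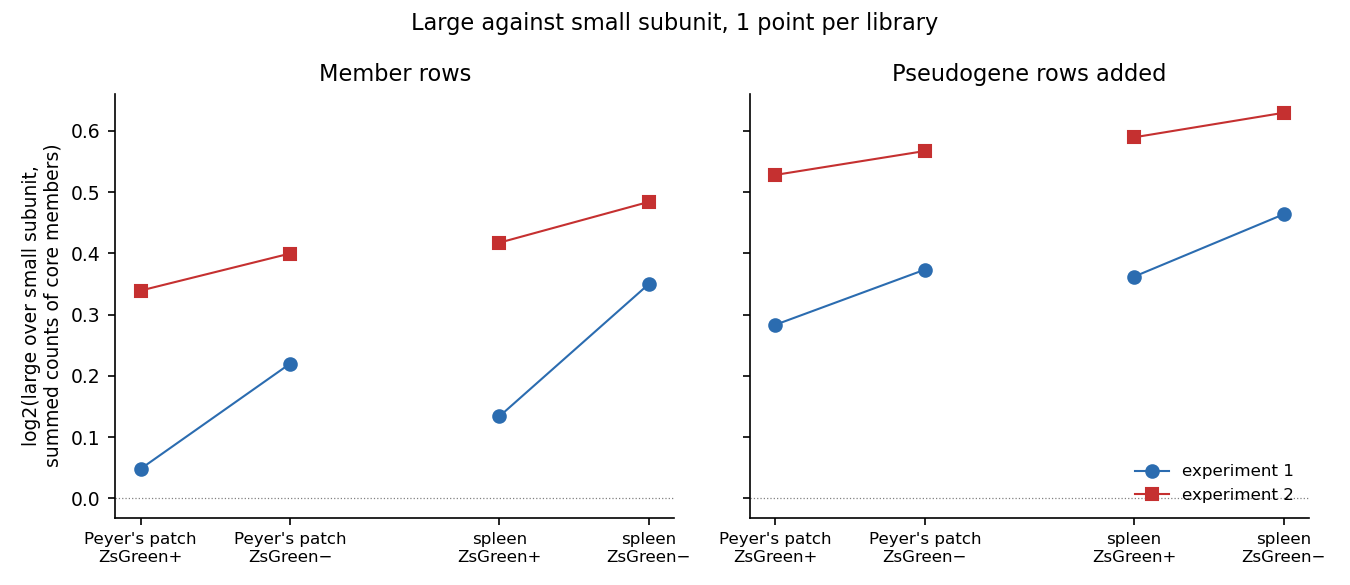
Log2 ratio of core large-subunit over core small-subunit counts (vertical axis) in each library, from the member rows and with the matched pseudogene rows and protein-coding copies, Rps27rt included, added. Lines join ZsGreen+ and ZsGreen- libraries of one tissue and experiment. From the member rows the 4 lines run lower in ZsGreen+ cells by 0.06 to 0.22, and experiment 2 lies above experiment 1 in every group.

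The sort differences of the 2 tissues were set against each other by an interaction term. No member passed in edgeR (0 of 90, where 0.0277% of all genes were higher and 0.0694% lower, 0.0971% together) or in DESeq2. At an unadjusted p under 0.05 the count was 0 higher and 1 lower, against 4.67% and 3.81% of all genes, and the 1 was Rpl39l (-2.90 ± 1.10, adjusted p = 0.468). The difference was positive in both experiments for 9 members and negative in both for 12, against 30.1% and 28.6% of all genes. The median over members was -0.04, and it was -0.24 in experiment 1 and 0.22 in experiment 2. A difference between tissues in the response of these genes was not detectable at this spread, which does not show that the tissues are alike.

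Between tissues no member passed in edgeR, in either sort. For Peyer's patch over spleen ZsGreen+ cells, 0 of 90 passed in edgeR, where 5.51% of all genes were higher and 7.17% lower (12.7% together). At an unadjusted p under 0.05 the count was 2 higher and 0 lower, against 12.7% and 13.6% of all genes. In both experiments 22 members were higher and 33 lower, against 36.6% and 34.4% of all genes. DESeq2 called 1 member. Rpl12, which with Rplp0 forms the base of the stalk, came closest: it had 37.5 and 12.8 CPM in Peyer's patch ZsGreen+ cells, against 27.4 and 7.59 CPM in spleen ZsGreen+ cells, with a log2 fold change of 0.59 ± 0.18 (adjusted p = 0.0511). Its row held 3.69% of its family, and the family sum had 0.25 (adjusted p = 0.380). Within each experiment Peyer's patch was the higher. Next were Rpsa (0.36, adjusted p = 0.290), Rps28 (0.32, adjusted p = 0.460) and Rpl9 (0.32, adjusted p = 0.332). At the low end stood Rpl39l (-0.98), Rps27 (-0.48), Rpl5 (-0.42) and Rps21 (-0.37). With copies Rpsa had 0.38 and Rps28 0.040, while the sign turned for Rpl9 (-0.019), Rps27 (0.14) and Rpl5 (0.14). The median over members was -0.04, against 0.01 over all genes.

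For Peyer's patch over spleen ZsGreen- cells, 0 of 90 passed in edgeR, where 1.82% of all genes were higher and 3.68% lower (5.49% together). At an unadjusted p under 0.05 the count was 3 higher and 1 lower, against 7.26% and 10.5% of all genes. In both experiments 12 members were higher and 11 lower, against 31.7% and 31.4% of all genes. DESeq2 called Rpl7l1 higher (0.43, adjusted p = 0.0475). That assembly factor had 74.5 and 215 CPM in Peyer's patch ZsGreen- cells, against 51.6 and 172 CPM in spleen ZsGreen- cells, and 66.3 and 217 CPM in Peyer's patch ZsGreen+ cells, against 51.8 and 185 CPM in spleen ZsGreen+ cells. Peyer's patch was the higher in all 4 pairs. The experiments went opposite ways over the members as a whole: the median was 0.19 in experiment 1, with 14 of 90 lower, and -0.24 in experiment 2, with 75 lower, for a fitted median of 0.01. Extremes included Rpl39l (1.92), Rpl36a-ps1 (0.54), Rpl7l1 and Rpsa (0.41) at the high end, and Rpl24 (-0.46), Rps27rt (-0.39) and Rpl3 (-0.33) at the low end. The Rpl24 sum had -0.035.

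Genes that share a pathway with the ribosomal proteins were described from lists. In edgeR 0.437% of all genes passed in Peyer's patch and 8.62% in spleen (4.53% higher and 4.09% lower). At an unadjusted p under 0.05, 4.31% of all genes were higher and 3.82% lower in Peyer's patch. In spleen these shares were 10.6% and 11.3%. Fau, made as a fusion of a ubiquitin-like protein with a small-subunit protein, had log2 fold changes of -0.62 in Peyer's patch and -0.58 in spleen. Rack1, a scaffold on the small subunit, had 0.09 and 0.17, and neither passed the threshold. Of 17 other mRNAs with TOP tracts, such as elongation factors, 0 passed in either tissue in edgeR (1 higher and 0 lower at an unadjusted p under 0.05 in each), with medians of -0.10 in Peyer's patch and 0.00 in spleen. Of 35 ribosome assembly genes 1, Rps19bp1, passed in spleen (median 0.11) and 0 in Peyer's patch (median -0.06, also 0 at an unadjusted p under 0.05). Of 13 RNA polymerase I genes 0 passed in either, with 3 in Peyer's patch and 2 in spleen at an unadjusted p under 0.05. Of 18 genes of TOP control and MYC 1 passed in spleen, Eif4ebp1, a repressor of translation that mTORC1 inactivates, with 0.87 ± 0.21 (adjusted p = 0.0268). None passed in Peyer's patch, where 3 were lower at an unadjusted p under 0.05. DESeq2 was not summarised over these lists.

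The 78 mitochondrial ribosomal protein genes, a list added after the data were seen, differed in the direction of their medians from the cytosolic ones. In spleen ZsGreen+ over ZsGreen- cells 3 rose, Mrps30 (0.69), Mrpl20 (0.68) and Mrpl27 (0.53), 0 fell, and the median was 0.26. Of all genes 4.53% were higher. At an unadjusted p under 0.05, 22 were higher and 0 lower, against 10.6% and 11.3% of all genes, and 56 were higher in both experiments, against 31.7% of all genes. Peyer's patch had 0 past the threshold in edgeR, 2 higher at an unadjusted p under 0.05, and a median of 0.05. The difference between the lists was not tested.

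Genes of the cell cycle changed with the sort in spleen, and markers of B cells did so unevenly. Over all genes 0.437% passed in Peyer's patch and 8.62% in spleen in edgeR. Of 13 proliferation genes 11 rose in spleen ZsGreen+ cells, among them Kif11, a mitotic motor (1.38), and Rrm2, a subunit of ribonucleotide reductase (1.48), and their summed level was 2023 to 3236 CPM in ZsGreen+ cells, against 1033 to 1197 CPM in ZsGreen- cells. In Peyer's patch 0 of 13 passed in edgeR (10 higher at an unadjusted p under 0.05), with 723 to 1482 CPM in ZsGreen+ cells, against 561 to 886 CPM in ZsGreen- cells. Of 7 B cell markers tested, Cd22 (-4.15) and Ighm (-1.39) fell in spleen and Cd22 (-1.77) in Peyer's patch. In spleen 3 of the 7 had negative values and 4 positive ones, the 4 at 3.09 CPM or less in every spleen library, and 2 of them were higher at an unadjusted p under 0.05. The summed level, most of it Ighm in spleen, of all 8 was 130 to 174 CPM in spleen ZsGreen+ cells, against 239 to 732 CPM in ZsGreen- cells, and 330 to 542 CPM in Peyer's patch ZsGreen+ cells, against 393 to 685 CPM in ZsGreen- cells. Of 6 Th17 fate genes 4 rose in Peyer's patch and 6 in spleen, and of 9 Tfh genes 4 fell in spleen, among them Cxcr5 (-1.69), and 0 passed in Peyer's patch (also 0 at an unadjusted p under 0.05). Of 6 plasma cell genes 1 passed in spleen, Ighg1 (2.66, adjusted p = 0.0370), with 13.8 and 0 CPM in ZsGreen+ cells (experiments 1 and 2), against 1.87 and 0.15 CPM in ZsGreen- cells, so that the experiments went opposite ways. None passed in Peyer's patch (2 higher at an unadjusted p under 0.05). Of 8 myeloid, 3 CD8 T and NK, and 5 epithelial and erythroid genes 0 passed in either sort comparison in edgeR, with 1 myeloid gene in Peyer's patch and 3 genes of these lists in spleen at an unadjusted p under 0.05. The part of these genes in the values of the ribosomal protein genes was not tested.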

How the data were processed

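Bulk mRNA was measured in 8 libraries of sorted Tfh cells. The raw tables deposited by the authors hold estimated counts per gene (expected counts), 1 table per experiment. Partek, STAR, DESeq2 and mm39 are named per the submitters' processing notes, without version or settings in the sources used here. The normalized tables of the authors were not used. Counts of the 16735 genes in both tables were rounded to whole numbers. The members, lists and tests were chosen with earlier results of these data known.

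edgeR 4.0.16 in R 4.3.3 (limma 3.58.1) filtered genes by group (filterByExpr, minimum count 10, minimum total 15), scaled libraries by TMM and fitted the 4 groups with the experiment as a block, leaving 3 residual degrees of freedom. Adjusted p-values are from its two-sided quasi-likelihood F test, Benjamini-Hochberg adjusted over 14418 genes, with a threshold of 0.05. CPM are TMM-scaled, and log2 CPM have a prior count of 2. The ± on a log2 fold change is a standard error derived from the F statistic. It is the absolute log2 fold change over the square root of F. Differences of an experiment are of log2 CPM between 2 libraries. The replicate numbers pair the libraries, since the labels tie each number to an experiment, and each group's deviation between its replicates tracked that of the others over genes, with r of 0.825 to 0.867 over 6 pairs of groups. DESeq2 1.42.0 was an alternative test. The edgeR fit was tested on simulated counts with 50 genes changed at each size in spleen ZsGreen+ libraries. It recovered 98% of them at a log2 fold of 1, 84% at -1, and 100% at 2 and at -2. Smaller changes and genes at low levels, as many members have, were not simulated.

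Pseudogene rows were matched to members other than Rps19bp1 and the copies (thresholds with the result) by BLAST 2.17.0 on GENCODE M21 transcripts by gene ID. Start windows were read from the RefSeq promoter table. Python 3.11.15 with pandas 2.3.3 made the summaries. Named members are those past the threshold, the 4 highest and 4 lowest values of each comparison, the 5 most and least abundant, and a set chosen for their roles. Members named only for their pseudogene rows, their family sums, their difference between experiments or a call under one alternative were chosen after their values were seen. The sequence match, its sums, the minimum coding length of 300 bases and the mitochondrial list were added after the data were seen. Values of a few genes are not reported here.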

Additional observations from a re-analysis of the deposited data

How the results depend on the processing

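The counts of members past the threshold moved as follows, and the cause was not tested. In Peyer's patch (ZsGreen+ over ZsGreen-, 0), DESeq2 gave 1, and leaving out 1 library gave 0 to 1 (Rpl37a without the experiment 2 library of ZsGreen- cells). In spleen (4), leaving out 1 library gave 0 to 8. For Peyer's patch over spleen ZsGreen+ cells (0), a minimum count of 30 gave 1 (Rpl12), DESeq2 gave 1, and leaving out 1 library gave 0 to 1 (Rpl34 without the experiment 1 library of spleen). With ZsGreen- cells in the same tissue comparison (0), library totals without TMM gave 1 (Rpsa), DESeq2 gave 1, and leaving out 1 library gave 0 to 1 (Rps27rt without the experiment 1 library of spleen). Rpl13, Rps18-ps5, Rps19bp1 and Rps27rt kept their direction in every alternative run and passed in 11 of 17, 10 of 16, 12 of 17 and 12 of 16 settings, the main one included.

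The libraries are paired by experiment. Without the replicate block 0 members passed in any comparison, and in spleen 0 of all genes did. The medians over members without the block were -0.28 in Peyer's patch, -0.20 in spleen, -0.11 for their difference, and -0.04 and 0.08 for Peyer's patch over spleen in ZsGreen+ and ZsGreen- cells.

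The median over members in spleen was -0.11 with library totals and ran from -0.31 to -0.13 with 1 library left out. For Peyer's patch it ran from -0.40 to -0.06, for the difference between the tissues from -0.24 to 0.16, and for Peyer's patch over spleen ZsGreen- cells from -0.20 to 0.15. For Peyer's patch over spleen ZsGreen+ cells it was -0.074 with DESeq2's size factors, 0.10 with library totals (0.14 over all genes) and -0.15 to 0.0022 with 1 library left out. The large over small ratio in spleen was -0.46 from median log2 CPM. For the difference between the tissues it was -0.012 from mean log2 CPM, 0.29 from median log2 CPM and -0.0075 with named pseudogene rows added. For Peyer's patch over spleen ZsGreen+ cells it was -0.014 and 0.026 from mean and median log2 CPM, and 0.011 without the 5 most abundant genes of each subunit. There it was -0.10 with named pseudogene rows added and -0.070 with sequence-matched pseudogene rows and copies added. For ZsGreen- cells it was -0.0021 and -0.27 from mean and median log2 CPM and -0.013 without those genes. Depth limits the members read at a few counts, such as Rpl39l, and 2 libraries a group limit every test.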

Other observations

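Values outside the comparisons above are given without explanation. Rps4l, a paralogue of Rps4x that the tables annotate as a transcribed processed pseudogene, had 8.41 and 3.86 CPM in spleen ZsGreen+ cells (experiments 1 and 2), against 0.963 and 1.23 CPM in ZsGreen- cells, and 0.281 and 4.58 CPM in Peyer's patch ZsGreen+ cells, against 0.816 and 4.99 CPM in ZsGreen- cells. Its log2 fold change was 2.73 ± 1.24 in spleen (adjusted p = 0.283) and -0.33 ± 1.17 in Peyer's patch (adjusted p = 0.972), and it was named after its values were seen.

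Among the ribosome-related genes, a few passed between tissues in ZsGreen+ cells (Peyer's patch over spleen). Of all genes, 5.51% were higher in that comparison and 7.17% lower (12.7% together). Bysl, a factor of small-subunit assembly, fell (-0.72, adjusted p = 0.0304), 1 of the 35 assembly genes. Taf1c, of the RNA polymerase I initiation complex, rose (0.59, adjusted p = 0.0259), 1 of 13. Mxd4, of the MYC network, rose (0.56, adjusted p = 0.0173), 1 of 18. Of the 78 mitochondrial ribosomal protein genes Mrps6 rose (0.62, adjusted p = 0.0288) and Mrps30 fell (-0.57, adjusted p = 0.0220).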
